A study of Mus musculus with 4 samples.

Results

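Erythroid genes and genes of heme synthesis were followed in the embryonic day 15 (E15) mouse cochlea through 8 members: the embryonic globins *Hba-x*, *Hbb-y* and *Hbb-bh1*, the heme enzymes *Alas2* and *Fech*, the red cell membrane genes *Slc4a1* and *Epb42*, and the erythroid transcription factor *Klf1*. The members were chosen by name, as every probe set whose only gene symbol in the array annotation is one of these, and each of the 8 had 1 probe set. They are 8 of 19938 genes named this way and 8 of 35556 probe sets. Wild-type cochleas were compared with mutant cochleas of the genotype *Meis2* flox/flox; *Pax2* Cre/+. Here a Cre driven by *Pax2* sequences recombines the floxed *Meis2* alleles from the early otic placode and vesicle on. There were 2 arrays of each genotype, named wild-type replicates 2 and 3 and *Meis2* mutant replicates 1 and 2. Each array was hybridized with RNA of the whole cochlea, and the sources do not say whether the arrays of one genotype come from separate embryos or pools, so the p-values measure only the spread between these arrays. In such bulk samples fewer cells of a type and less RNA per cell cannot be told apart. The whole cochlea includes vessels, which hold blood.

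Red blood cells are filled with hemoglobin, a tetramer of alpha-type and beta-type globin chains that each hold a heme group. Primitive red cells, which arise in the yolk sac, carry the embryonic globins, and definitive red cells, which come from the fetal liver at mid-gestation, carry the adult ones. Heme is built from glycine and succinyl-CoA in a chain of enzymatic steps that begins and ends in the mitochondrion. ALAS2 is the erythroid form of the enzyme for the first step and FECH inserts iron in the last. Neither the Cre line nor *Meis2* deletion in the otic epithelium is aimed at blood cells.

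*Hba-x* and *Hbb-y* were higher and *Alas2* lower in the mutants, by the largest differences of the 8 members. The stretches upstream of these 3 are shown. Each is the 150 bases before the start site annotated by RefSeq on GRCm38.p6, written 5′ to 3′ on the gene's strand. Such stretches were read for 5 of the 8 members. *Hba-x* lies on the plus strand at chr11:32276450-32276599, *Hbb-y* on the minus strand at chr7:103853208-103853357 and *Alas2* on the plus strand at chrX:150547267-150547416. Capitals mark matches on either strand to motifs known from globin and other promoters. The letters searched were CACCC for the site of Krüppel-like factors such as KLF1. They were GATAA for the site of GATA factors, and CCAAT for the box that the factor NF-Y binds. For the TATA box they were TATAAA, and a variant of it was searched as ATAAAA. For the core that Meis factors are known to recognize they were TGACAG.
Hba-x: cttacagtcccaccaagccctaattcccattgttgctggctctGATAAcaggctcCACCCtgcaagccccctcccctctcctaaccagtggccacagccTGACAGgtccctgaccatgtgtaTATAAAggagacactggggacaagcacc
Hbb-y: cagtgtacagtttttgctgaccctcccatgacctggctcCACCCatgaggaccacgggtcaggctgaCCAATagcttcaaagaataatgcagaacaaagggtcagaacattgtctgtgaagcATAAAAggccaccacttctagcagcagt
Alas2: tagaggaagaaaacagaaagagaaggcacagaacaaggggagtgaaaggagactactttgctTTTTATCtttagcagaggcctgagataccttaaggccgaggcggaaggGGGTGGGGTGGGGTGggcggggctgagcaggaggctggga
The *Hba-x* stretch held 1 match each to the Krüppel-like site, the GATA site, the TATA box and the Meis core, and its TATA box began 28 bases upstream of the start. The *Hbb-y* stretch held 1 match each to the Krüppel-like site, the NF-Y box and the variant TATA box, and the last of these also began 28 bases upstream. In *Alas2*, the Krüppel-like site was read 3 times on the opposite strand between 40 and 26 bases upstream. A GATA site on the opposite strand, from 86 to 82 bases upstream, overlapped the letters ATAAAA. These were also on the opposite strand, from 88 to 83 bases upstream, unlike the boxes of *Hba-x* and *Hbb-y*. The stretches of *Klf1* and *Epb42* were read but are not shown. That of *Klf1* held 1 match each to the Krüppel-like site, the GATA site and the NF-Y box. That of *Epb42* held only 1 match, to the TATA box on the opposite strand, from 126 to 121 bases upstream. Of 32851 promoter stretches of the same length, 37.4% held the Krüppel-like site, 13.3% the GATA site and 24.5% the NF-Y box. The TATA box was in 7.57% of them, its variant in 10.1% and the Meis core in 9.67%. A match describes letters in the sequence and was not tested as a binding site.

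Values below are log2 signals per probe set, computed by the authors with the robust microarray analysis (RMA) algorithm, and a difference is the mutant mean minus the wild-type mean (SE, standard error; CI, confidence interval). Tests used limma, which borrows information on the spread across probe sets. Its p-values were adjusted by Benjamini-Hochberg over the 35556 probe sets, and an adjusted p under 0.05 is called passed. The members passed this test in both directions: 5 were higher in the mutants, 1 was lower and 2 did not pass. Over all probe sets 21.6% were called higher and 15.7% lower, so a call by itself is common in this comparison. The median difference of all probe sets was 0.11, and 0.03 after each array was shifted to a common median. The probe set of *Meis2* differed by 0.19 (limma adjusted p = 0.284), but it may read exons outside the deleted part and checks nothing. The arrays also differed in sex-linked transcripts. *Eif2s3y* of the Y chromosome was at 8.76 and 7.77 in wild type and 4.68 and 4.88 in mutants. *Xist* was at 5.54 and 11.51 in wild type and 11.83 and 11.84 in mutants. Wild-type replicate 3 thus had high signals of both transcripts, and whether it holds RNA of more than 1 embryo was not tested. Because the Y-linked signal followed genotype, a part of sex cannot be told apart from one of genotype in any difference below.

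**Figure D1:**
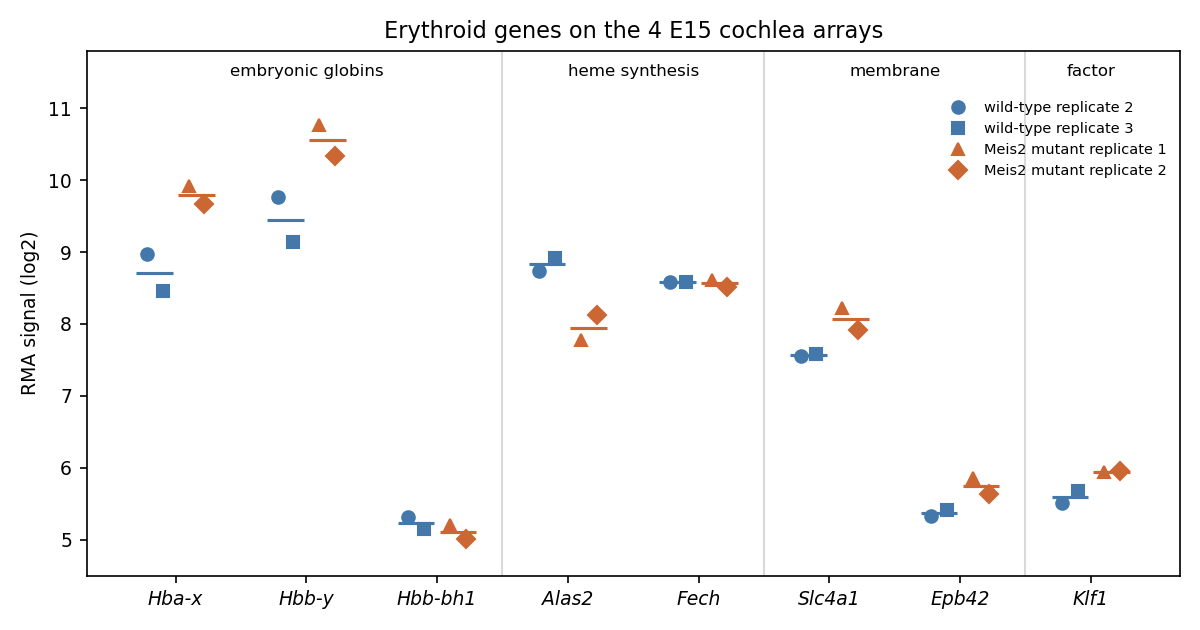
Log2 RMA signal (vertical axis) of the 8 members on each of the 4 arrays, with a bar at the mean of each genotype (n = 2). The mutant points of *Hba-x* and *Hbb-y* lie about 1 log2 unit above the wild-type points, those of *Alas2* lie below them, and those of *Hbb-bh1* and *Fech* overlap with them.

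The embryonic alpha-type globin *Hba-x*, which encodes the zeta chain, had signals of 8.98 and 8.45 in wild type and 9.91 and 9.67 in mutants. Both mutant arrays were above both wild-type arrays. The mean rose from 8.72 ± 0.37 to 9.79 ± 0.17 (SD, n = 2), a difference of 1.08 (SE 0.20, 95% CI 0.56 to 1.60, 2.11-fold, limma adjusted p = 0.0159). The call ended without mutant replicate 1 (limma adjusted p = 0.0745) or mutant replicate 2 (limma adjusted p = 0.0551).

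*Hbb-y*, which encodes the embryonic epsilon-type beta chain, had signals of 9.77 and 9.13 in wild type and 10.77 and 10.34 in mutants. The groups did not overlap here either, and the 4 arrays stood in the same order as for *Hba-x*, with mutant replicate 1 highest and wild-type replicate 3 lowest. The difference was 1.10 (SE 0.26, 95% CI 0.44 to 1.76, 2.15-fold, limma adjusted p = 0.0282). It missed the threshold without wild-type replicate 3 (adjusted p = 0.0553), mutant replicate 1 (adjusted p = 0.111) or mutant replicate 2 (adjusted p = 0.06, all from limma).

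Within each array, *Hbb-y* and *Hba-x* kept close to a fixed distance although they lie on chromosomes 7 and 11. Probe sets differ in brightness, so only changes of a ratio between them can be read, not its size. The log2 ratio of *Hbb-y* to *Hba-x* was 0.79 and 0.68 in wild type and 0.85 and 0.67 in mutants. The genotype means of that ratio, 0.73 and 0.76, differed by 0.03 (exact two-sided permutation test, p = 1), and with 2 arrays against 2 the smallest p this test can give is 0.333. Among 19937 other genes, searched by the Euclidean distance between log2 profiles centered on their mean over the 4 arrays, *Hba-x* was the nearest to *Hbb-y*, at 0.154. *Hbb-y* was the second nearest to *Hba-x*, after *Mir665* at 0.124. The third nearest to *Hba-x* was *Gm11564* at 0.182, and *Mir134* at 0.241 and *Mir455* at 0.245 followed *Hba-x* for *Hbb-y*. The 2 profiles themselves spanned much more, with distances from their own means of 1.15 for *Hba-x* and 1.23 for *Hbb-y*.

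The remaining embryonic globin did not follow them. *Hbb-bh1*, another beta-type chain of primitive red cells, had signals of 5.31 and 5.15 in wild type and 5.21 and 5.01 in mutants. The genotypes overlapped, and the difference was -0.12 (95% CI -0.41 to 0.17, limma adjusted p = 0.426). Its probe set was among the lowest 25% by mean signal.

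Adult globins could be read only through probe sets that carry the symbols of several near-identical genes. Both probe sets shared by the adult alpha globins did not pass: the first had signals of 13.28 and 13.20 in wild type and 13.24 and 13.30 in mutants (difference 0.03, 95% CI -0.19 to 0.24, limma adjusted p = 0.801). The 2 probe sets shared by the adult beta globins were lower in the mutants. The first fell from 13.31 and 13.30 to 12.80 and 12.73, a difference of -0.54 (SE 0.08, limma adjusted p = 0.00922). The second fell from 13.28 and 13.25 to 12.76 and 12.78, a difference of -0.49 (limma adjusted p = 0.0107). The first call ended without mutant replicate 2 (limma adjusted p = 0.0654), and the second ended without either mutant replicate (up to 0.0666). The adult alpha sets, the adult beta sets and the embryonic pair thus gave differences near 0, below 0 and above 0 on the same 4 arrays.

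Of the other globin genes with a probe set of their own, 1 of 3 passed. *Hbb-bh2*, a minor beta-type gene of the same cluster, had signals of 5.28 and 5.17 in wild type and 5.52 and 5.53 in mutants (difference 0.30, limma adjusted p = 0.0453), and no longer passed with a trended prior, after median scaling or repeated quantile normalization, or without any single array. *Hbq1b* and *Hbq1a*, the theta globins, differed by 0.23 (limma adjusted p = 0.116) and 0.21 (limma adjusted p = 0.155).

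**Figure D2:**
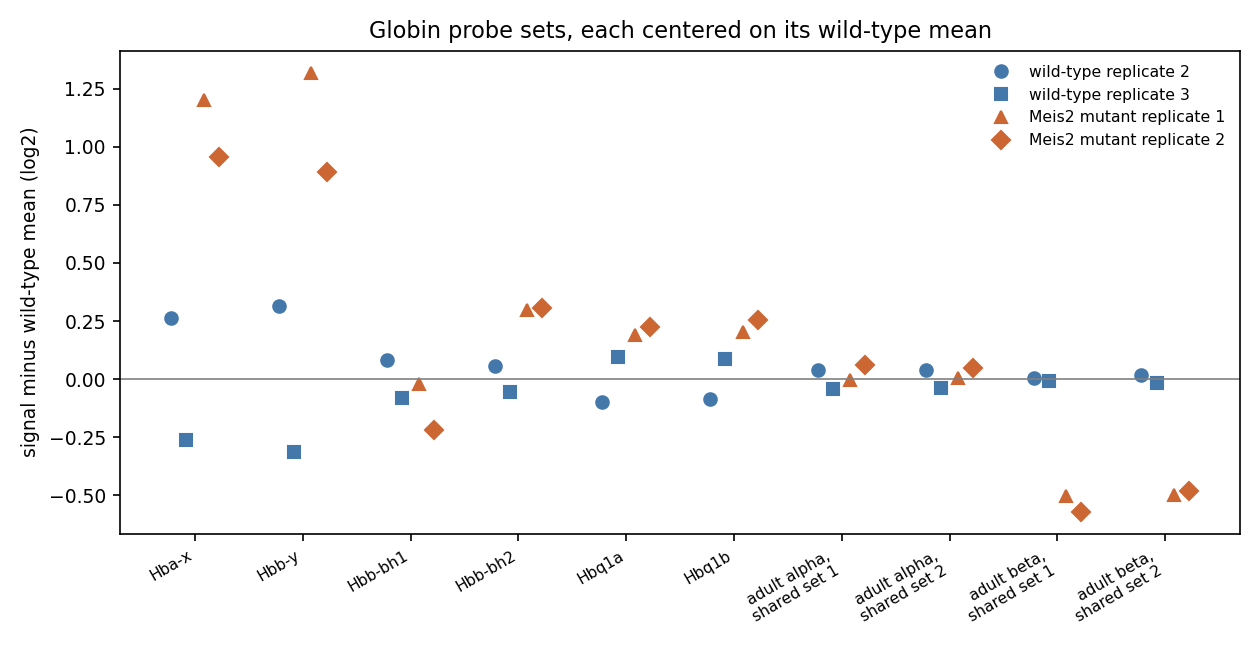
Globin probe sets on each array as the log2 signal minus the wild-type mean of that probe set. The embryonic *Hba-x* and *Hbb-y* are high on both mutant arrays, the sets shared by the adult alpha globins stay near 0, and those shared by the adult beta globins lie about 0.5 below it.

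In heme synthesis the first step differed between its erythroid and its general enzyme. *Alas2*, the erythroid 5-aminolevulinate synthase on the X chromosome, had signals of 8.74 and 8.92 in wild type and 7.78 and 8.12 in mutants. Both mutant arrays were below both wild-type arrays, and the order of the 4 arrays was the reverse of that for *Hba-x* and *Hbb-y*. The mean fell from 8.83 ± 0.13 to 7.95 ± 0.25 (SD, n = 2), a difference of -0.88 (SE 0.15, 95% CI -1.26 to -0.50, 1.84-fold lower, limma adjusted p = 0.0122). *Alas2* was the only member that passed under every alternative tried, with a highest adjusted p of 0.0464 from limma, without mutant replicate 1. The Y-linked transcripts were high on both wild-type arrays and low on both mutant arrays, while *Xist* was low only on wild-type replicate 2. For this X-linked gene, as for the other members, a part of sex and one of genotype cannot be told apart. The genes with the nearest profiles were *Ube2w* at 0.0712, *Klf10* at 0.0798 and *Eif3a* at 0.0835, against a distance of 0.923 of *Alas2* from its own mean.

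*Alas1*, the form of the same enzyme used in all tissues, went the other way, with signals of 8.65 and 8.79 in wild type and 9.42 and 9.28 in mutants. The difference was 0.63 (SE 0.10, limma adjusted p = 0.0105, and 0.061 without mutant replicate 1). The log2 ratio of *Alas2* to *Alas1* within an array was 0.09 and 0.13 in wild type and -1.64 and -1.16 in mutants. Its means differed by -1.51 (exact two-sided permutation test, p = 0.333, the smallest possible). The ratio of *Alas2* to *Hbb-y* fell likewise, from -1.03 and -0.21 to -2.99 and -2.22, a difference of -1.98 (exact permutation p = 0.333).

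*Fech*, ferrochelatase, closes the route and gave the smallest difference of the 8 members. Its signals were 8.58 and 8.59 in wild type and 8.61 and 8.52 in mutants, with overlap. The difference was -0.02 (SE 0.08, 95% CI -0.23 to 0.19, limma adjusted p = 0.873), and its sign turned after repeated quantile normalization (0.06) and without mutant replicate 2 (0.03).

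Of 9 heme synthesis enzymes listed, 8 were measured by a probe set of their own, of which 2 were higher, 2 lower and 4 did not pass. Over all probe sets, 21.6% were called higher and 15.7% lower. *Alad*, which joins 2 aminolevulinate molecules to porphobilinogen, had signals of 10.99 and 10.47 in wild type and 11.65 and 11.67 in mutants. Its difference was 0.93 (SE 0.18, limma adjusted p = 0.0185, and as much as 0.0836 without 1 of the mutant arrays). *Uros*, uroporphyrinogen synthase, had signals of 6.75 and 6.99 in wild type and 6.42 and 6.38 in mutants, lower by a difference of -0.47 (limma adjusted p = 0.0288). That call ended without wild-type replicate 3 or without either mutant array, with values up to 0.13. The later enzymes *Urod* (-0.26, adjusted p = 0.149), *Cpox* (-0.05, adjusted p = 0.703) and *Ppox* (-0.08, adjusted p = 0.513) did not pass in limma. The median difference of the 8 was -0.06, and it was 0.02 after repeated quantile normalization.

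**Figure D3:**
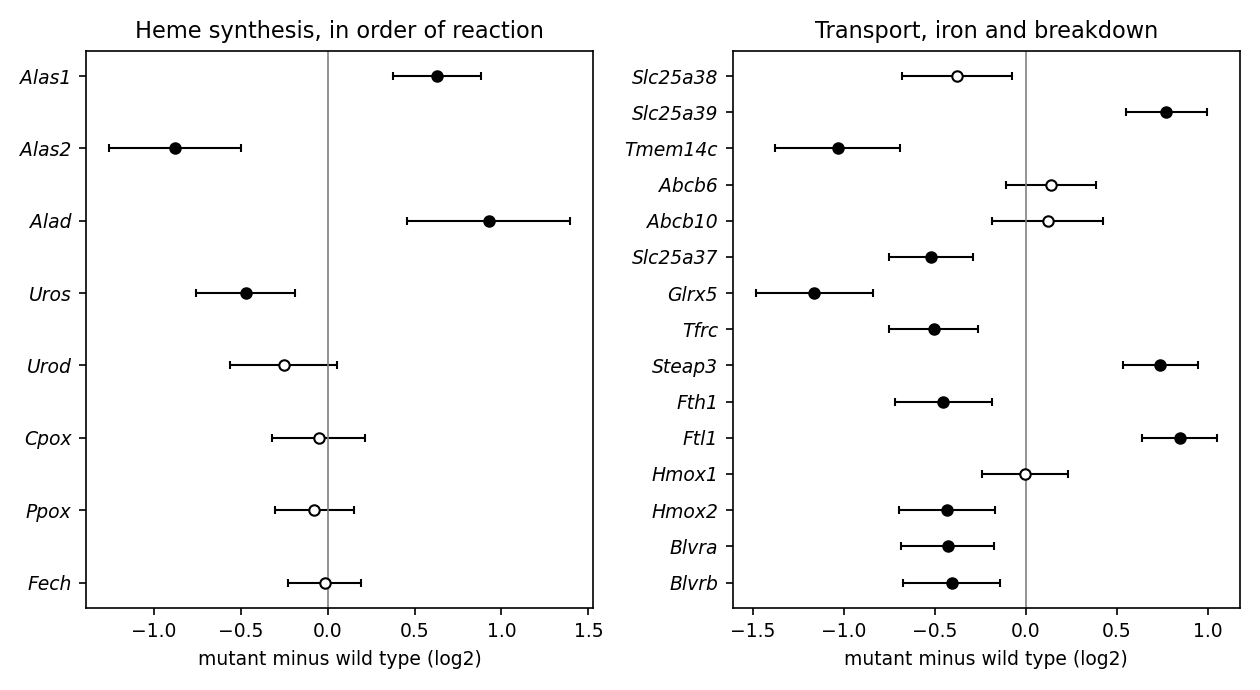
Log2 differences (mutant minus wild type) with 95% CIs from limma, for heme synthesis enzymes in the order of their reactions and for genes of heme transport, iron handling and breakdown. Filled points passed the threshold: *Alas2* and *Alas1* lie on opposite sides of 0, while the enzymes from *Urod* to *Fech* are open.

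Among genes that move heme and its precursors or break heme down, 3 of 17 measured were higher, 6 lower and 8 did not pass, with a median difference of 0.01. Beside these counts stand the shares of all probe sets, 21.6% called higher and 15.7% lower. Without wild-type replicate 3, mutant replicate 1 or mutant replicate 2, the count of lower genes was 3, 2 and 2. *Tmem14c*, a mitochondrial membrane protein that supports porphyrin import in erythroid cells, had signals of 9.05 and 9.29 in wild type and 8.26 and 8.01 in mutants (difference -1.03, SE 0.13, limma adjusted p = 0.00681). *Pgrmc1*, a heme-binding membrane protein that associates with ferrochelatase, fell by 1.03 (limma adjusted p = 0.0036). *Slc25a39*, a mitochondrial carrier, was higher by 0.77 (limma adjusted p = 0.00508). *Slc46a1*, which carries folate and also heme, was higher by 0.85 (limma adjusted p = 0.00628). These 4 calls held under each of the 9 limma alternatives tried. *Hmox1*, the inducible heme oxygenase, had signals of 8.70 and 8.55 in wild type and 8.61 and 8.63 in mutants, named here after its values were seen (difference -0.00, limma adjusted p = 0.983). *Flvcr1*, named likewise, was counted as not passed through its brighter probe set (0.17, limma adjusted p = 0.2115). Its other set gave a difference of -0.41 (limma adjusted p = 0.0215), so its probe sets disagree.

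Iron handling gave calls in both directions. Of 19 genes measured, 4 were higher, 7 lower and 8 did not pass, and the median difference was -0.08. The share called higher was near the 21.6% of all probe sets, of which 15.7% were called lower. Without mutant replicate 1 the counts were 2 higher and 3 lower, and without mutant replicate 2 they were 2 and 2. *Glrx5*, a mitochondrial glutaredoxin needed for iron-sulfur cluster assembly and for heme synthesis in red cells, had signals of 9.72 and 9.98 in wild type and 8.60 and 8.77 in mutants (difference -1.16, SE 0.13, limma adjusted p = 0.00478). *Ireb2*, the iron regulatory protein that binds ferritin and transferrin receptor messages, fell by 0.99 (limma adjusted p = 0.00397). *Ftl1*, the ferritin light chain, was higher by 0.85 (limma adjusted p = 0.00385), as was *Steap3*, the ferrireductase of red cell precursors, by 0.74 (limma adjusted p = 0.00473). These 4 calls held under the 9 limma alternatives too. *Tfrc*, the transferrin receptor, which was named after its values were seen, fell by 0.51 (limma adjusted p = 0.0165, up to 0.0946 without 1 of the mutant arrays).

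The membrane members *Slc4a1* and *Epb42* were both higher in the mutants, by smaller differences than *Hba-x* and *Hbb-y*. *Slc4a1*, the anion exchanger known as band 3, had signals of 7.55 and 7.59 in wild type and 8.23 and 7.92 in mutants. The groups did not overlap, and mutant replicate 1 was again the highest. The mean rose from 7.57 ± 0.02 to 8.07 ± 0.22 (SD, n = 2), a difference of 0.50 (SE 0.13, 95% CI 0.18 to 0.83, 1.42-fold, limma adjusted p = 0.0346). The call ended after median scaling (adjusted p = 0.0571) and without wild-type replicate 2 (0.0918), wild-type replicate 3 (0.0814) or mutant replicate 1 (0.119, all from limma). The profiles nearest to it were those of *Krtap13-1*, *Tinf2* and *Mlc1*, at 0.0297, 0.0462 and 0.0476.

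*Epb42*, protein 4.2, links band 3 to the ankyrin complex of the membrane skeleton. Its signals were 5.34 and 5.41 in wild type and 5.86 and 5.64 in mutants, in the same order of arrays as *Slc4a1*. These are low signals, not far above the lower quartile of all probe sets. That quartile was itself higher in the mutants, at 5.22 on both arrays against 5.10 and 5.11 in wild type. The difference was 0.38 (SE 0.11, 95% CI 0.10 to 0.66, 1.30-fold, limma adjusted p = 0.0483). It lay just inside the threshold, which it missed after median scaling (0.0908), after repeated quantile normalization (0.152) and without any single array (up to 0.198, from limma). *Olfr693*, *Fpgs* and *Adck5* had the nearest profiles, at 0.0064, 0.0137 and 0.0245.

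Of 21 other genes of the red cell membrane and its skeleton that were measured, 8 were higher, 1 lower and 12 did not pass, with a median difference of 0.24. The shares of all probe sets called were 21.6% higher and 15.7% lower. Over all 23, the members included, the 10 higher calls came down to 6 after median scaling, to 4 and 6 without wild-type replicates 2 and 3, and to 2 and 4 without mutant replicates 1 and 2. *Icam4*, the Landsteiner-Wiener blood group glycoprotein, had signals of 5.86 and 5.87 in wild type and 6.51 and 6.58 in mutants (difference 0.68, SE 0.08, limma adjusted p = 0.00564), and was the only one of these 21 called under all 9 limma alternatives. *Bcam*, the Lutheran glycoprotein that epithelia also carry, was higher by 0.72 (limma adjusted p = 0.00968, 0.0561 without mutant replicate 1). *Slc2a1*, the glucose transporter GLUT1, was higher by 0.53 (limma adjusted p = 0.0115, up to 0.0691 without 1 of the mutant arrays). *Mpp1*, the palmitoylated protein p55, was the one gene of the 21 called lower, by a difference of -0.55 (limma adjusted p = 0.00952, reaching 0.065 without 1 of the mutant arrays). The markers *Rhd* and *Ermap*, blood group proteins of red cells, were higher by 0.66 (adjusted p = 0.0254) and 0.28 (adjusted p = 0.0495, both from limma). *Rhd* did not pass without wild-type replicate 2 or mutant replicate 1, and *Ermap* did not pass without any single array or after either rescaling. Of the skeleton genes, *Add1* and *Dmtn* were higher by 0.46 (adjusted p = 0.0154) and 0.58 (adjusted p = 0.0234, both from limma). Their differences ranged from 0.37 to 0.51 and from 0.44 to 0.72 under the 9 limma alternatives. Blood group and skeleton genes that did not pass included *Rhag* (0.24, adjusted p = 0.133), *Kel* (0.19, 0.251), *Gypc* (0.16, 0.272), *Xk* (0.02, 0.867) and *Sptb* (0.07, 0.621, all from limma). *Add1*, *Dmtn* and these genes were named after their values were seen. For *Tmod1*, a capping protein of the membrane skeleton, 1 probe set was higher by 0.53 and the other differed by -0.18, so its probe sets disagree. The same held for *Cd47*, the marker of self on red cells, whose brighter probe set differed by 0.06 and whose other set fell by 0.98 (limma adjusted p = 0.00313).

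*Klf1*, the erythroid factor that binds CACCC boxes of globin genes, had signals of 5.51 and 5.67 in wild type and 5.95 on both mutant arrays. The mutant arrays were above the wild-type arrays, at a low signal. The difference was 0.36 (SE 0.09, 95% CI 0.12 to 0.60, 1.28-fold, limma adjusted p = 0.0385). It did not pass after median scaling (difference 0.27, limma adjusted p = 0.0762) or repeated quantile normalization (difference 0.21, limma adjusted p = 0.148), nor without wild-type replicate 2 (adjusted p = 0.105), mutant replicate 1 (0.144) or mutant replicate 2 (0.156, all from limma). Its nearest profiles were those of *Elovl5*, *Cyp4b1* and *Rhoh*, at 0.0064, 0.0179 and 0.0214.

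Of 18 other transcription factors of the erythroid list, 9 were higher, 1 lower and 8 did not pass, with a median difference of 0.34. Among all probe sets 21.6% were called higher and 15.7% lower. With *Klf1* the 10 higher calls became 5 without mutant replicate 1 and 4 without mutant replicate 2. *Runx1*, a factor of blood stem cell formation that other tissues also use, had signals of 9.14 and 9.11 in wild type and 10.52 and 10.26 in mutants (difference 1.27, SE 0.11, 2.41-fold, limma adjusted p = 0.00365). *Foxo3*, which drives stress resistance in maturing red cells, rose by 1.04 (limma adjusted p = 0.00351), and *Zfpm1*, the GATA cofactor FOG1, by 0.90 (limma adjusted p = 0.00612). *Gata2*, a factor of early progenitors with a known role in the inner ear, rose by 0.69 (limma adjusted p = 0.00767, and 0.0529 without mutant replicate 2). *Cbfa2t3*, named after its values were seen, was counted as not passed through its brighter probe set (0.33, limma adjusted p = 0.07455). Its other set was higher by 0.59 and passed (limma adjusted p = 0.00733). *Gata1*, the defining factor of the lineage, had signals of 5.44 and 5.28 in wild type and 5.49 and 5.63 in mutants (difference 0.20, 95% CI -0.07 to 0.47, limma adjusted p = 0.188). *Lmo2*, its bridging partner, named after its values were seen as the one factor called lower, fell by 1.03 (limma adjusted p = 0.00961, and above the threshold without either mutant array).

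Red cell enzymes and markers of late maturation gave 9 higher, 3 lower and 6 that did not pass among 18 measured, with a median difference of 0.28. For all probe sets the shares were 21.6% higher and 15.7% lower. Without wild-type replicates 2 or 3 there were 5 higher calls in each case, and without mutant replicates 1 and 2 there were 4 and 2. *Car2*, a carbonic anhydrase of red cells that many epithelia share, had signals of 10.29 and 10.37 in wild type and 9.43 and 9.32 in mutants (difference -0.95, SE 0.09, limma adjusted p = 0.00383). *Car1*, the carbonic anhydrase typical of red cells, was named after its values were seen and had signals of 5.56 and 5.59 in wild type and 6.89 and 6.28 in mutants. Its difference of 1.01 (limma adjusted p = 0.0208) did not pass without either wild-type array, with values up to 0.058. *Ube2o*, a ubiquitin enzyme that clears ribosomes from reticulocytes, was higher by 0.73 (limma adjusted p = 0.00544), while *Gpx1*, the main glutathione peroxidase of red cells, fell by 0.59 (limma adjusted p = 0.00708, and 0.0531 without mutant replicate 2). *Hemgn*, a nuclear protein of erythroid precursors, differed by 0.19 (limma adjusted p = 0.152).

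Over the 8 pathway lists, with the members left out, 61 of 113 measured genes passed in either direction, where 37.3% of all probe sets did, and 16 of these genes passed under all 9 limma alternatives as well. The count was 21 without mutant replicate 2 and 26 without mutant replicate 1. The lists were described by counts and medians, beside a median of 0.11 over all probe sets. The 113 genes and all probe sets are unlike sets, because the latter include 12146 with no symbol here. After the dimmest 25% of probe sets were left out, 61 of 109 listed genes and 12797 of 26667 probe sets passed.

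**Figure D4:**
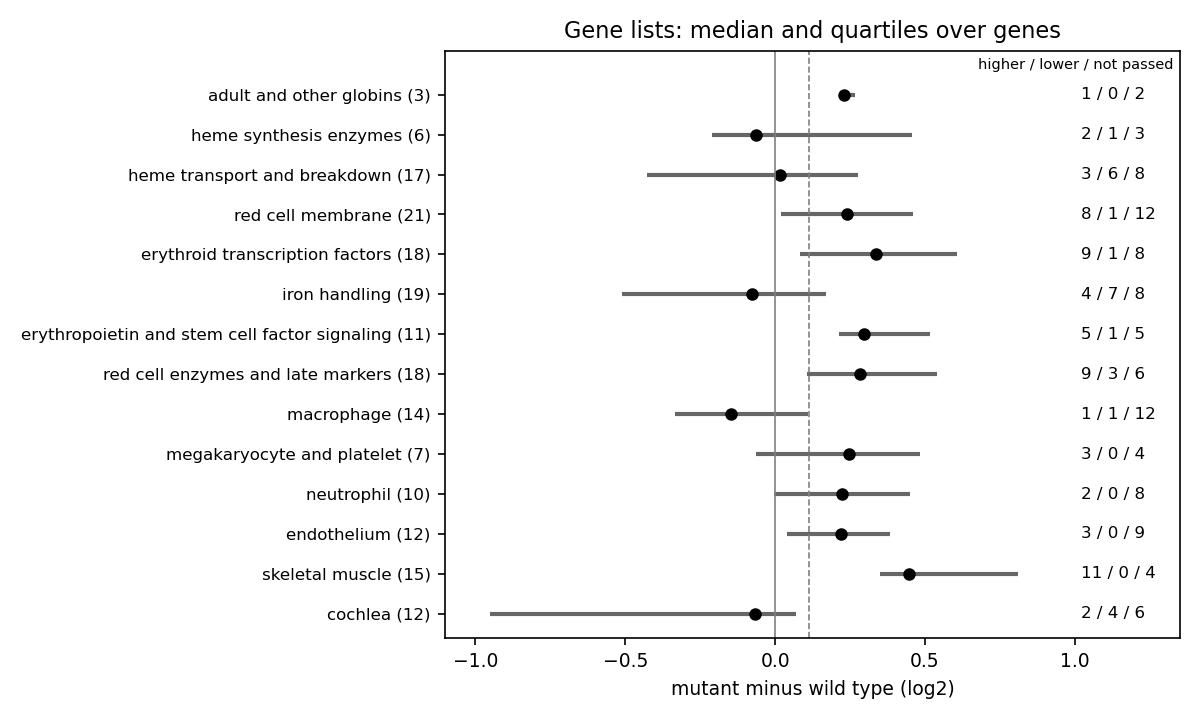
Median log2 difference between mutant and wild type (points), and quartiles (bars) over the genes of each list, with the 8 members left out, the number of genes measured in brackets, and the numbers higher, lower and not passed at the right. The dashed line is the median of all probe sets, 0.11; the medians of the transcription factor, membrane and late marker lists lie above it and those of heme synthesis and iron handling below 0.

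Markers of other cell types are given beside the shares of all probe sets called, 21.6% higher and 15.7% lower. Of 15 skeletal muscle genes, 11 were higher in the mutants and none was lower (4 did not pass), with array means of 6.14 and 6.38 in wild type and 6.70 and 7.03 in mutants. The 11 became 6 after median scaling, 1 without wild-type replicate 2, and 5 and 2 without mutant replicates 1 and 2. *Myh3*, the embryonic myosin, rose by 1.55 (limma adjusted p = 0.0095). Of 12 endothelial genes, 3 were higher and none lower (5 higher after repeated quantile normalization, and 1 without either mutant array), with array means of 9.08 and 9.17 in wild type and 9.29 and 9.38 in mutants. Their share called higher was near that of all probe sets. *Eng*, endoglin, rose by 0.95 (limma adjusted p = 0.00324), while the defining markers *Pecam1* (-0.23, adjusted p = 0.0766), *Cdh5* (0.21, 0.0913), *Tek* (-0.44, 0.0976) and *Kdr* (-0.06, 0.598, all from limma) did not pass. Of 14 macrophage genes, 1 was higher and 1 lower (5 lower without wild-type replicate 2), shares below those of all probe sets, with array means of 7.05 and 7.42 in wild type and 7.11 and 7.08 in mutants. Macrophages engulf old red cells and recycle their iron. *Cd68*, their lysosomal glycoprotein, rose by 0.62 (limma adjusted p = 0.00707) and was called under all 9 limma alternatives. *Mrc1*, the mannose receptor, fell by 1.23 (limma adjusted p = 0.0258, not passed without either mutant array). Of 12 cochlear markers, 2 were higher and 4 lower, with array means of 10.16 and 10.18 in wild type and 9.84 and 9.92 in mutants. *Epcam*, of epithelia, fell by 0.90 (limma adjusted p = 0.00392), and *Nefl*, of neurons, fell by 1.63 (limma adjusted p = 0.00244). *Pax2*, of the otic epithelium, rose by 0.97 (limma adjusted p = 0.0076), and *Sox10*, of otic epithelium and glia, rose by 0.46 (limma adjusted p = 0.0271). The authors report, from antibody staining at an earlier stage, a severely reduced Pax2 domain in these mutants. The mutants carry a Cre driven by *Pax2* sequences, and whether the *Pax2* probe set reads only the gene itself was not tested. *Sox10* no longer passed after median scaling or without any single array. The part of these cell types in the results on erythroid genes was not tested.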

How the data were processed

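The deposited log2 signals are the authors' RMA values, with background correction, normalization of the arrays to each other and 1 summary per probe set. RMA and the build mm8 are named in the submitters' processing notes. Scanner files, ChIP-seq, qPCR and histology were not used here. No fold change or p-value of the authors was used. Probe sets were named through the platform annotation, with symbols updated for 21698 of the 21789 that carried 1 symbol. A gene with several probe sets was read through the one whose mean over the 4 arrays was highest.

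Genotypes were compared on the deposited values with limma 3.58.1 in R 4.3.3 (functions lmFit and eBayes) without covariates or a filter, and p-values were adjusted by Benjamini-Hochberg over the whole table. The spread was estimated with 2 residual degrees of freedom and 2.91 from the prior, so the number of arrays limits the precision. Pearson's r across probe sets, which are not independent, was 0.993 and 0.996 within genotypes and 0.966 to 0.971 between them. The methods' test, significance analysis of microarrays (SAM), was written for this work over all 6 relabelings and used as an alternative. The limma fit was tested on simulated data, and the SAM code was not. The other alternatives were median scaling, quantile normalization of the values over again, a trended prior, leaving out the dimmest 25% of probe sets, array weights, the mean of a gene's probe sets, a threshold of 0.1 and leaving out each array, which leaves its genotype with 1 array assumed to vary like the others. Of these, the 9 run with limma for every listed gene are the trended prior, both normalizations, the filter, the weights and the 4 omissions.

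The members, the 8 pathway lists and the 6 lists of other cell types (macrophage, megakaryocyte and platelet, neutrophil, endothelium, skeletal muscle, cochlea) were chosen with earlier results of these data known. The text names all members, takes examples from the 4 genes per list whose unadjusted p was smallest (all genes of a list with 8 or fewer measured), and uses *Meis2*, *Xist* and *Eif2s3y* as checks of the samples. Defining markers of a cell type were also named.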

Additional observations from a re-analysis of the deposited data

How the results depend on the processing

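The arrays, 2 of each genotype, limit every result here. No paired analysis was possible because the genotypes share only replicate number 2. *Alas2* kept its direction and passed under all 12 alternatives (-1.05 to -0.71). Of the 8 members, 6 passed, also with SAM, the mean of probe sets and the looser threshold of 0.1, against 3 after median scaling and 1 to 3 with 1 array left out. Over all probe sets 13268 passed, 26925 with SAM and 4611 to 10895 with 1 array left out. SAM as written here has only 6 relabelings to draw on. The authors report far fewer differing transcripts from their own SAM, most of them lower in the mutants. The cutoff behind their count is not stated. Among genes of the pathway lists 61 passed, 93 with SAM and 21 to 53 with 1 array left out.

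*Epb42* (0.38) missed the threshold with array weights (0.38, limma adjusted p = 0.0537), a trended prior (0.38, 0.0528), median scaling (0.29) and repeated quantile normalization (0.24), and ranged from 0.26 to 0.49 with 1 array left out. *Klf1* missed it after median scaling (0.27) and repeated quantile normalization (0.21), and ranged from 0.27 to 0.44. *Slc4a1* missed it after median scaling (0.42) and ranged from 0.35 to 0.66. *Hba-x* ranged from 0.82 to 1.34 and *Hbb-y* from 0.79 to 1.42 with 1 array left out, and both passed under the other alternatives. *Fech* turned to 0.0605 after repeated quantile normalization and ranged from -0.0643 to 0.0281 with 1 array left out. *Hbb-bh1* stayed below 0 and above the threshold wherever it was tested, and has no value under the filter on dim probe sets, which removed it. Omitting an array leaves fewer arrays to test on. For the other changes the cause was not tested.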

Other observations

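Genes of erythropoietin and stem cell factor signaling, which keeps red cell progenitors alive and dividing, were also measured. Of 11 of them, 5 were higher in the mutants, 1 was lower and 5 did not pass, with a median difference of 0.30 beside 0.11 over all probe sets. The shares called over all probe sets were 21.6% higher and 15.7% lower. The 5 higher calls became 3 without mutant replicate 1 and 2 without mutant replicate 2. *Epor*, the erythropoietin receptor, had signals of 5.88 and 5.85 in wild type and 6.65 and 6.60 in mutants (difference 0.77, SE 0.08, limma adjusted p = 0.00447). *Sh2b3*, an adaptor that restrains signaling from this receptor, rose by 0.85 (limma adjusted p = 0.00622), and both calls held under the 9 limma alternatives. *Gab1*, a docking protein, rose by 0.56 (limma adjusted p = 0.00882, 0.0629 without mutant replicate 2). *Jak2*, the kinase bound to the receptor, fell by 0.56 (limma adjusted p = 0.0112, 0.0713 without mutant replicate 2).

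Of 7 measured genes of megakaryocytes and platelets, which share a progenitor with red cells, 3 were higher and none was lower (1 higher without either mutant array), with array means of 6.71 and 6.90 in wild type and 7.04 and 6.97 in mutants. *Treml1*, a receptor of platelet granules, rose by 0.69 (limma adjusted p = 0.00622), and *Itga2b*, the platelet integrin, by 0.50 (limma adjusted p = 0.0151, up to 0.0835 without 1 of the mutant arrays). The defining chemokine genes *Pf4* and *Ppbp* differed by -0.31 (limma adjusted p = 0.25) and -0.37 (limma adjusted p = 0.135). Of 10 neutrophil genes, 2 were higher, none was lower and 8 did not pass. Their array means were 5.99 and 5.88 in wild type and 6.33 and 6.02 in mutants. Beside both lists stand the shares of all probe sets called, 21.6% higher and 15.7% lower. The neutrophil share called higher was near that of all probe sets. The granule proteases *Prtn3* and *Elane* rose by 0.66 (adjusted p = 0.0136) and 0.58 (adjusted p = 0.0478, both from limma). *Prtn3* did not pass without mutant replicate 1 or 2, and the *Elane* call remained in 1 of the 4 runs with an array left out.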
